A study of Mus musculus with 9 samples.

Results

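Transcript changes were examined for 10 genes of DNA replication in the embryonic mouse cortex. They are Mycn, 6 genes that act in origin licensing or in the copying and repair of chromatin (Cdc6, Cdt1, Mcm3, Mcm7, Uhrf1 and Bard1), and 3 replication histone genes (Hist1h4c, Hist3h2ba and Hist1h2bc). The genes were taken by name from the authors' tables of 3 comparisons, where they are 10 of the 1030 genes listed in any table. They were selected on the fold changes and adjusted p-values of these tables, which are therefore given as a description, with no test of their own. RNA was sequenced from 9 cortices at embryonic day 12, with 3 libraries per genotype from 2 litters. All embryos carried Emx1 Cre/+, which drives Cre recombinase in progenitors of the dorsal telencephalon. Their Zbtb7a alleles were +/+ (WT), fl/+ (cHet) or fl/fl (cKO), where fl is the allele that Cre can delete and Zbtb7a codes for a zinc finger transcription factor with a BTB domain. WT embryos therefore also carried Cre, and cells in which Emx1 is not active keep intact alleles. How much of the floxed allele was lost was not measured here.

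A replication origin is licensed in G1, when the origin recognition complex, CDC6 and CDT1 load the MCM2 to MCM7 helicase onto DNA. The loaded helicase is switched on in S phase, when histones must also be made to package the copied DNA. Most licensing genes are transcribed under E2F factors. N-MYC, the product of Mycn, is a growth-promoting transcription factor that is needed for the expansion of neural progenitors in the mouse brain. The mRNAs of replication histones differ from other mRNAs in that they usually end in a short stem-loop in place of a poly(A) tail, whereas the libraries were made from poly(A) RNA.

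Levels per library were not analysed here, since the values are the authors' log2 fold changes with their standard error (SE). Each compares 3 libraries with 3 others, and a positive value was read as more RNA in the group named first, after the names of the tables. No gene with a known change anchors that direction, so every higher or lower below rests on those names. Listed genes are those with an adjusted p under 0.05, the only rows in the tables. Of 15465 genes in the adjustment for cHet against WT, 248 were listed, or 1.6%. For cHet against cKO the numbers were 971 of 13375, or 7.26%, and for cKO against WT 4 of 26976, or 0.0148%. Both tables with cHet use the same 3 cHet libraries, so a shift in those libraries would enter both. Zbtb7a was listed in no table, so the genotype labels were not checked by its level. Eif2s3y, a Y-linked gene, was lower in cHet in both tables, and the sex of the embryos, which the labels do not give, cannot be told apart from genotype.

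Of the 7 genes other than histones, 6 were higher in cHet than in WT and 5 were higher in cHet than in cKO, and none was lower. Genes higher in cHet made up 0.815% of those tested against WT and 3.12% of those tested against cKO. The listed increases were of similar size. In the authors' deposited table against WT they ran from a log2 change of 0.54 to 0.64, which are ratios of 1.45 to 1.56, with a median of 0.60, beside a median of 0.52 over all 126 genes listed as higher. In the authors' deposited table against cKO they ran from 0.50 to 0.58, or ratios of 1.42 to 1.50, with a median of 0.54 beside 0.50 over all 417 higher genes. To be listed, a change had to be about 3.35 times its SE against WT and 2.91 times against cKO. Smaller changes are therefore missing, which narrows these ranges, and a uniform shift of the members cannot be read from them. Because the tissue is whole cortex, a larger share of cells that use a gene and more RNA per cell cannot be told apart.

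**Figure D1:**
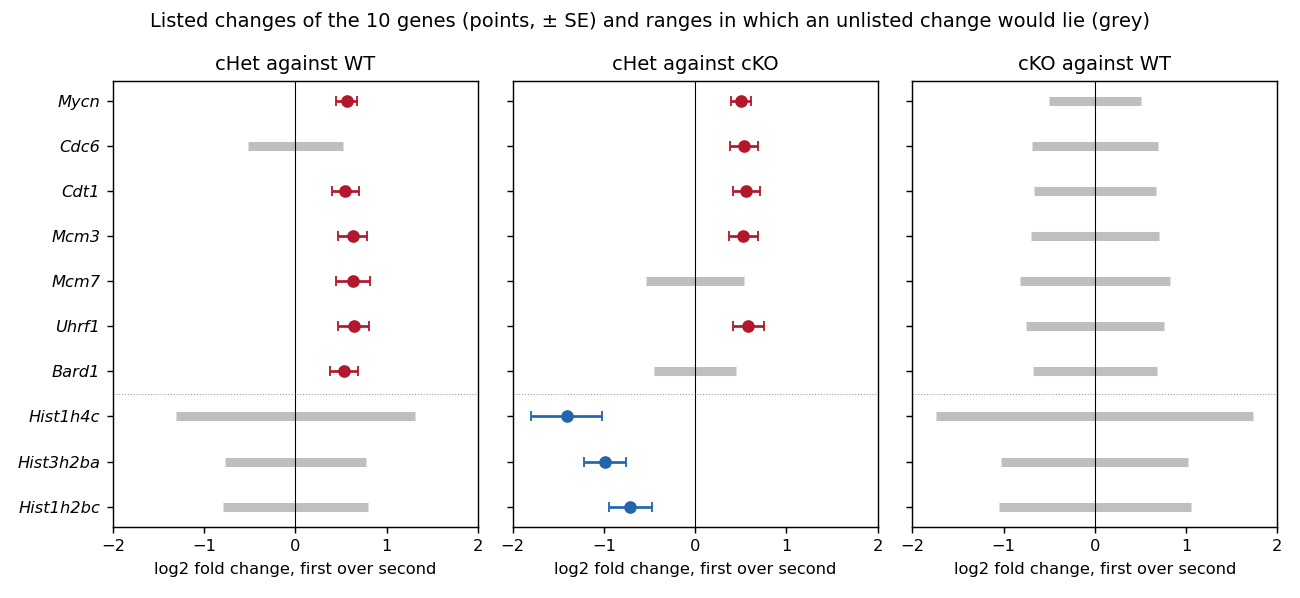
Log2 fold changes of the 10 genes in 3 comparisons, with points and bars for listed changes ± SE (red higher, blue lower in the first-named group). Grey bands give the range for an unlisted change if its SE were that of the other table, with each comparison taken alone. The licensing genes and Mycn sit near 0.5 to 0.6 wherever listed, the 3 histone genes sit between -1.41 and -0.71 against cKO, and the cKO against WT panel holds bands with no point.

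Mycn (ENSMUSG00000037169) lies on the minus strand of chromosome 12 from 12936093 to 12941914 (GRCm38, the assembly of mm10). For cHet over WT the authors' deposited table gave 0.56 (SE 0.11) on the log2 scale, a ratio of 1.48 with an adjusted p of 0.000595. For cHet over cKO the authors' deposited table gave 0.50 (SE 0.11), a ratio of 1.42 with an adjusted p of 0.00232. By p-value Mycn ranked 4 among the 126 genes higher than in WT and 11 among the 417 higher than in cKO, while by size of change it ranked 44 and 207. Its SE was the smallest among the 10 members. No 50-base stretch of its annotated transcripts was found in a transcript of another gene. Of the other 11 genes of the MYC network, 1 was listed in each table with cHet. Mlxip, whose product pairs with MLX, had 0.49 (SE 0.15) against WT in the authors' deposited table, and Mlx itself had -0.57 (SE 0.17) against cKO in the authors' deposited table. The genes whose 2 changes lay nearest to those of Mycn, among genes listed in both tables, were Slc35a4 at a distance of 0.0070 on the log2 scale, Otx1 at 0.021 and Trp53 at 0.033. These distances rest on 2 comparisons that share the cHet libraries.

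CDC6 and CDT1 bring the helicase to the origin. Cdt1 (ENSMUSG00000006585, chromosome 8 from 122568015 to 122573554, plus strand) had log2 changes of 0.55 (SE 0.15) against WT and 0.56 (SE 0.15) against cKO in the authors' deposited table. Its adjusted p was 0.027 and 0.014 in the authors' deposited table, and the changes are ratios of 1.46 and 1.48. Cdc6 (ENSMUSG00000017499, chromosome 11 from 98907801 to 98923940, plus strand) was listed against cKO, where the authors' deposited table gave 0.54 (SE 0.16) with an adjusted p of 0.0241. Cdc6 was not listed against WT, where with this SE a log2 change of at least 0.52 would have been needed. That limit lies just under its change against cKO, and a difference between the 2 changes beyond their error is not shown.

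The helicase subunits Mcm3 and Mcm7 were listed against WT, and Mcm3 against cKO as well. Mcm3 (ENSMUSG00000041859, chromosome 1 from 20802968 to 20820312, minus strand) had 0.63 (SE 0.16) against WT and 0.53 (SE 0.16) against cKO in the authors' deposited table, with adjusted p-values of 0.0126 and 0.028. Mcm7 (ENSMUSG00000029730, chromosome 5 from 138164583 to 138172422, minus strand) had 0.63 (SE 0.19) against WT in the authors' deposited table. Its adjusted p of 0.0474 lay just inside the threshold. To be listed against cKO, Mcm7 would have needed a change of at least 0.54 at this SE, which is not far below its change against WT. Of its 50-base stretches, 23.3% occurred in transcripts of other genes, most of them in the predicted gene Gm5487, and its exons overlap those of Cops6 and Ap4m1 on the opposite strand. As strandedness is not given, the value of Mcm7 is uncertain to that extent. Of the 6 subunits of the MCM2 to MCM7 helicase, 2 were listed against WT and 1 against cKO, and of the 6 subunits of the origin recognition complex none was listed.

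Uhrf1 and Bard1 act on newly copied chromatin. UHRF1 binds hemimethylated DNA and brings the maintenance methyltransferase DNMT1 to it. Uhrf1 (ENSMUSG00000001228, chromosome 17 from 56303321 to 56323486, plus strand) had 0.64 (SE 0.17) against WT and 0.58 (SE 0.17) against cKO in the authors' deposited table, with adjusted p-values of 0.0215 and 0.0248. These were the highest of the member changes in each table, yet they exceed the lowest, 0.54 for Bard1 and 0.50 for Mycn, by less than the SE of Uhrf1. For Uhrf1, 15.4% of 50-base stretches were shared with other genes, most of them with the predicted gene Gm5648. BARD1 is the partner of BRCA1 in a ubiquitin ligase used in repair by recombination. Bard1 (ENSMUSG00000026196, chromosome 1 from 71027498 to 71103146, minus strand) had 0.54 (SE 0.15) against WT, with an adjusted p of 0.0377 in the authors' deposited table. It was not listed against cKO, where a change of 0.45 would have been enough at this SE if the gene entered that adjustment.

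No member was among the 4 genes listed for cKO against WT by the authors' DESeq2 test, and unadjusted p-values of unlisted genes were not analysed here. The threshold in that table was high. With 26976 genes in the adjustment and only 4 listed, a further call required the change to be 4.43 times its SE. This cut falls as more genes are listed, so its height is in part a result of the comparison itself. On the log2 scale it was 0.50 for Mycn, 0.67 for Cdt1, 0.70 for Mcm3 and 0.75 for Uhrf1. For these 4 genes, listed in both tables with cHet, the change of cKO over WT follows from the difference of the 2 deposited values if all comparisons came from 1 fit. The implied log2 change was 0.060 for Mycn with a 95% interval from -0.16 to 0.28. It was 0.10 for Mcm3 (-0.21 to 0.41), -0.014 for Cdt1 (-0.31 to 0.28) and 0.054 for Uhrf1 (-0.28 to 0.39). These values are a description. The gap between the change of cHet over WT and the implied one is the listed change of cHet over cKO, on which the 4 genes were selected, so they give no independent measure of how near cKO was to WT. The SE of the implied values was taken as the mean of the 2 deposited ones, since over the 190 genes in both tables the ratio of the SEs ran from 0.992 to 1.01.

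**Figure D2:**
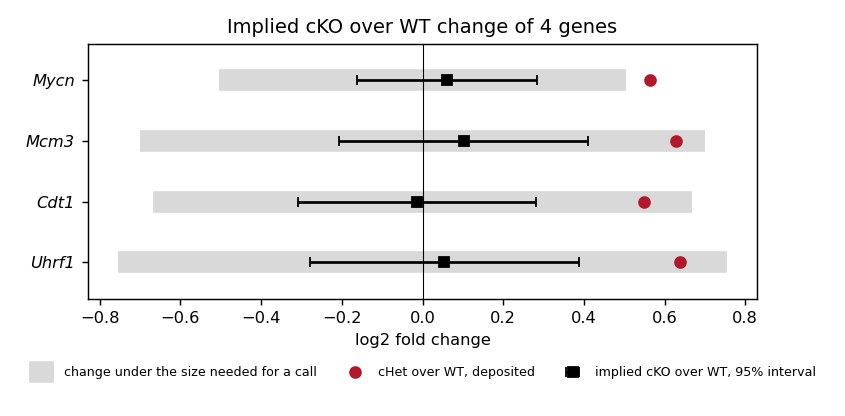
Implied log2 change of cKO over WT (squares, 95% interval) for the 4 genes listed in both tables with cHet, beside the deposited change of cHet over WT (red points). Grey bands mark changes too small to be listed for cKO against WT, and the squares lie between -0.014 and 0.10. The distance from a square to its red point is the listed change of cHet over cKO, by which the genes were selected.

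The promoter sequences of these genes were compared as well. They did not enter the choice of members, but licensing genes are known E2F targets, so E2F words are anticipated in a set chosen by function. Windows from 250 bases before to 50 bases after RefSeq transcription starts (GRCm38.p6) were searched on both strands. The 4 E2F words were TTCCCGC and its variants TTCGCGC as well as TTGCCGC together with TTGGCGC. Not every annotated start had a window. That of Cdc6 (chr11:98907901-98908200) lies wholly inside the gene, which begins at 98907709 in RefSeq. For Mcm7 and Bard1 the outermost RefSeq start lies upstream of the starts used. Matches in these genes are therefore not placed by the outermost start. The same windows were searched for the E-box CACGTG, which MYC proteins bind, for the box CCAAT and for the box TATAAA, and matches may overlap. All 7 genes other than histones had at least 1 E2F word, in 9 of their 9 windows, against 9.57% of all 32851 windows. In windows with at least 8 CpG dinucleotides, the lowest number in these 9, the share was 17.8%. The 9 windows held from 8 to 33 CpG and every E2F word contains CG, so that share is not matched to their CpG number. The share was 20.9% over the windows of 100 genes higher in cHet than in WT. Over those of 335 genes higher than in cKO it was also 20.9%. Not every listed gene had a window, and the listed members are included in these shares. For genes lower in cHet the shares were 4.58% against WT and 14.1% against cKO. CACGTG was in none of the 9 windows, against 7.15% of all windows, and TATAAA in none against 13.6%. CCAAT was in 5 of the 9 windows, from 3 of the 7 genes, against 37.4% of all windows. Both histone windows, of Hist1h4c and Hist3h2ba, held CCAAT, and that of Hist3h2ba also held an E2F word and TATAAA. A match to these letters is no proof of binding, and a window without one says nothing of the factor.

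The windows of the 4 genes listed in both tables with cHet are shown 5′ to 3′ from RefSeq, with the E2F words in capitals. In Mycn (chr12:12941787-12942086, minus strand) 3 overlapping or neighbouring words lie between positions -182 and -161 from the start. In Mcm3 (chr1:20820263-20820562, minus strand) and Cdt1 (chr8:122567765-122568064, plus strand) they lie within the first 49 transcribed bases. For Uhrf1 (chr17:56303087-56303386, plus strand) the window of the first of its starts is given, with 1 word from position -48 to -42.
Mycn: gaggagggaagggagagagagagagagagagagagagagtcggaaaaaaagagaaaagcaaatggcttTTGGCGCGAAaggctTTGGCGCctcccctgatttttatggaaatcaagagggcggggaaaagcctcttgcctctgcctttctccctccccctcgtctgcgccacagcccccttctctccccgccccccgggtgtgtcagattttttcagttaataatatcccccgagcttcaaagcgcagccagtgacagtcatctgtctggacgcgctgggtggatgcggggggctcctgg
Mcm3: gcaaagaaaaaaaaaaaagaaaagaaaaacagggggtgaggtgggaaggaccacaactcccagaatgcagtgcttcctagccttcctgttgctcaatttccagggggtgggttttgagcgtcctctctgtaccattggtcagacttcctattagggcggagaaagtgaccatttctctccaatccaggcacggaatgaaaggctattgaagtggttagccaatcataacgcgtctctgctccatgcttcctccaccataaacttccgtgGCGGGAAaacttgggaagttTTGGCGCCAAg
Cdt1: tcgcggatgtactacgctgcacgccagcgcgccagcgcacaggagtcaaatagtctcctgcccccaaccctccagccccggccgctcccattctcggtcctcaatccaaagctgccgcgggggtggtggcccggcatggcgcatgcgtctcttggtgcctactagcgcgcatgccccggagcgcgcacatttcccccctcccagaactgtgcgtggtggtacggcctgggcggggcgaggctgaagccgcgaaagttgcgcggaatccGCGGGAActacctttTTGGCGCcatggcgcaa
Uhrf1: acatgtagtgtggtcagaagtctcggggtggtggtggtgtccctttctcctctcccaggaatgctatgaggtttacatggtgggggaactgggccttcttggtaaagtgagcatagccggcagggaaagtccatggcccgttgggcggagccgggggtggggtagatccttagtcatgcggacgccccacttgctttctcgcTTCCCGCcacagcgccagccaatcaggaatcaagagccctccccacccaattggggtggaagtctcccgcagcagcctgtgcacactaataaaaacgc

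**Figure D3:**
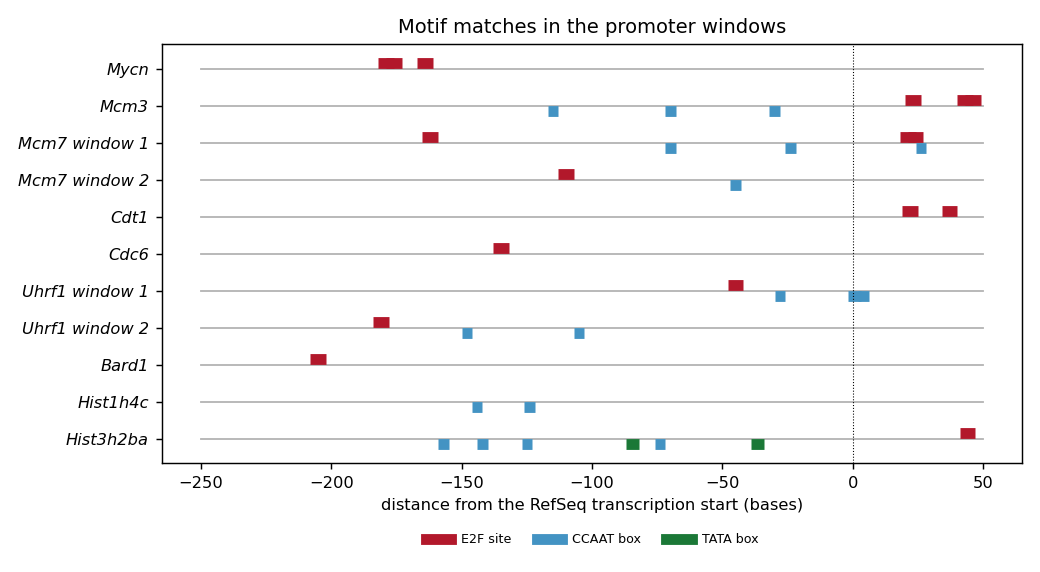
Matches to the E2F words (red), CCAAT (blue) and TATAAA (green) in the 11 promoter windows found for the members, by distance in bases from the RefSeq transcription start used. Each of the 9 windows of the genes other than histones has a red mark, at varying distances, and of the 2 histone windows that of Hist3h2ba has both green marks and 1 red mark after the start.

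The 3 histone genes went the other way. They were lower in cHet than in cKO, in a table where 4.14% of genes tested were listed as lower, and were not listed in either comparison with WT. Hist1h4c (ENSMUSG00000060678, chromosome 13 from 23697635 to 23698454, minus strand), which encodes histone H4, had -1.41 (SE 0.39) in the authors' deposited table on the log2 scale, a ratio of 0.377 with an adjusted p of 0.0187. Hist3h2ba (ENSMUSG00000056895, chromosome 11 from 58948920 to 58949533, plus strand), an H2B gene outside the large cluster, had -0.99 (SE 0.23) in the authors' deposited table, a ratio of 0.504 with an adjusted p of 0.0034. Hist1h2bc (ENSMUSG00000018102, chromosome 13 from 23684199 to 23692908, plus strand), an H2B gene in the same cluster as Hist1h4c, had -0.71 (SE 0.24) in the authors' deposited table, a ratio of 0.611 with an adjusted p of 0.0451. The 95% intervals of the 3 overlap, from -2.18 to -0.64 for Hist1h4c, -1.44 to -0.54 for Hist3h2ba and -1.18 to -0.24 for Hist1h2bc. The median over all 554 genes lower in cHet than in cKO was -0.82 in the authors' deposited table, so the change of Hist1h4c was the 54th largest by size and that of Hist1h2bc the 367th.

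Taken alone at these errors, an unlisted log2 change of cHet against WT could reach 1.31 for Hist1h4c, 0.77 for Hist3h2ba and 0.80 for Hist1h2bc. For cKO against WT the limits were 1.74, 1.02 and 1.05. If all comparisons came from 1 fit, the 2 changes of a gene differ by its listed change of cHet against cKO. Both are then bounded together, and neither is free over its whole range in both directions. Even so, the tables leave undetermined whether the histone genes in WT were nearer to cHet or to cKO. Whether the histone change differed between the comparisons was not tested. Of 67 annotated protein-coding genes of the Hist1 to Hist4 clusters, 3 were listed against cKO, or 4.48%, beside 7.26% of all genes tested. How many of the 67 entered the adjustment is unknown. Hist1h4c shared 19.6% of its 50-base stretches with other genes, most with Hist1h4a, Hist3h2ba shared 22.1% with Hist3h2bb-ps, and Hist1h2bc shared 30.6%, most with Hist1h2bg. The shared stretches lay in 220 other genes for Hist1h2bc, in 11 for Hist1h4c and in 1 for Hist3h2ba. Reads of such stretches could be split or dropped in counting, which makes the histone values uncertain.

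The annotated 3′ ends of the listed histone genes are given because poly(A) selection takes an mRNA only by its tail. The stem-loop of replication histone mRNAs was found in the transcripts of Hist1h4c and Hist3h2ba, and is shown in capitals with 5 bases on each side, as in GENCODE M21 (chr13:23698084-23698109, minus strand, and chr11:58949344-58949369, plus strand).
Hist1h4c: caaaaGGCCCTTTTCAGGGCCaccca
Hist3h2ba: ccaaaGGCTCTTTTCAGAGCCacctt
In both genes the GENCODE transcript goes on past the loop, by 454 bases in Hist1h4c and by 169 bases in Hist3h2ba. The usual poly(A) signals, AATAAA or else ATTAAA, were found within the last 50 bases of the Hist3h2ba transcript and not of the other 2. RefSeq ends both genes just after the loop, at 23698084 on chromosome 13 and at 58949372 on chromosome 11. The single transcript annotated for Hist1h2bc had no stem-loop. Among the other 64 histone genes 44 had a loop, with a median of 65.5 bases after it and a range from 3 to 4884, and 21 had over 100 bases. Long annotated ends are thus shared by many histone genes that were not listed. Which of these forms the reads came from was not analysed here.

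**Figure D4:**
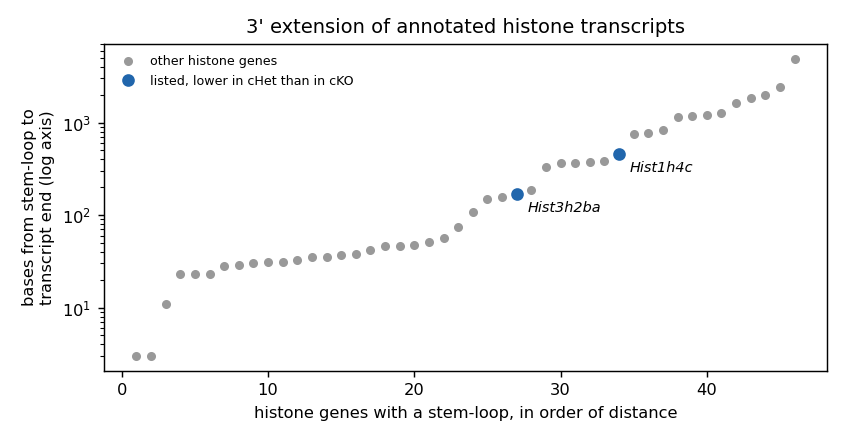
Bases between the stem-loop and the end of the longest-reaching annotated transcript (log axis) for the 46 histone genes with a loop, in order of that distance. Hist3h2ba at 169 (blue) lies just past the middle of the order and Hist1h4c at 454 (blue) further up. Other histone genes (grey) reach up to 4884.

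Merged exons were short in the histone genes, with 820 bp in Hist1h4c, 614 bp in Hist3h2ba and 1156 bp in Hist1h2bc, and from 3140 to 5659 bp in the other 7 members. Length moved with direction in the same table. In cHet against cKO the median merged exon length was 3060.5 bp over 482 lower protein-coding genes and 5575.5 bp over 416 higher ones, while against WT the medians were 4435.5 and 5015 bp. The part of length in the histone result was not tested.

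The rest of the replication machinery was described through 12 gene lists with 232 annotated genes, in which the members are included. Against WT 12 were listed, all higher, or 5.17%, and against cKO 12 were higher and 7 lower, or 8.19% together. Without the 10 members these shares were 2.7% and 4.95%, beside 1.6% and 7.26% of all genes tested. The list shares are of annotated genes and the others of tested genes, so they are not on the same base. The 67 replication histones weigh on the total. The 4 lists of licensing, firing, fork and chromatin replication hold 63 genes, of which 7 were listed against WT, or 11.1%, and 9 against cKO, or 14.3%, 8 of them higher. Without the 5 members in these lists the shares were 5.17% and 8.62%. None of the 232 was listed for cKO against WT.

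Genes of the fork list were higher where listed. Of 24 such genes 3 were listed against WT, with 0.56 (SE 0.15) for Pold1 and 0.42 (SE 0.12) for Pold2, subunits of DNA polymerase delta, and 0.44 (SE 0.12) for the checkpoint mediator Clspn in the authors' deposited table. Pold1 was also listed against cKO, with 0.56 (SE 0.15) in the authors' deposited table. Pole4, a subunit of DNA polymerase epsilon outside this list, went the other way, with -0.78 (SE 0.26) against cKO in the authors' deposited table. Origin firing had 2 of 13 genes listed against cKO, in opposite directions. In the authors' deposited table Gins2, a subunit of the active helicase, had -0.67 (SE 0.23) and the helicase gene Recql4 had 0.49 (SE 0.16). Among 10 genes of chromatin replication, the subunits of the histone chaperone FACT joined Uhrf1 against cKO, with 0.50 (SE 0.16) for Supt16 and 0.47 (SE 0.16) for Ssrp1 in the authors' deposited table. Of 22 G1/S control genes 2 were listed against cKO, with 0.52 (SE 0.14) for the transcription factor gene E2f3 and 0.50 (SE 0.16) for the phosphatase gene Cdc25a in the authors' deposited table. None of 13 genes of nucleotide synthesis and none of 18 mitotic genes was listed in any table. Bard1 was the single listed gene among 13 of recombination, or 7.69% against WT. Against WT the fork list had 12.5%. Against cKO the shares were 4.17% for the fork, 15.4% for firing, 30% for chromatin replication and 9.09% for G1/S control. Over all genes tested, 1.6% were listed against WT and 7.26% against cKO. An empty list this short is near those shares and does not show that its genes were spared.

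Replacement histones, which are made outside S phase as well and have poly(A) mRNAs, were listed in different directions in the tables with cHet. Against WT, H1fx had 0.59 (SE 0.16) and H2afy, which encodes macroH2A1, had 0.40 (SE 0.12) in the authors' deposited table. Against cKO, H3f3a, a gene for histone H3.3, had -0.80 (SE 0.25) and H2afv, a gene for an H2A.Z protein, had -0.72 (SE 0.24) in the authors' deposited table. These were 2 of 11 genes in each table, or 18.2%, and no gene was in both. Of 13 genes for histone mRNA processing 1 was listed, or 7.69%. It was the scaffold gene Sympk, at 0.40 (SE 0.12) against cKO in the authors' deposited table. Over all genes tested the shares were 1.6% against WT and 7.26% against cKO.

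**Figure D5:**
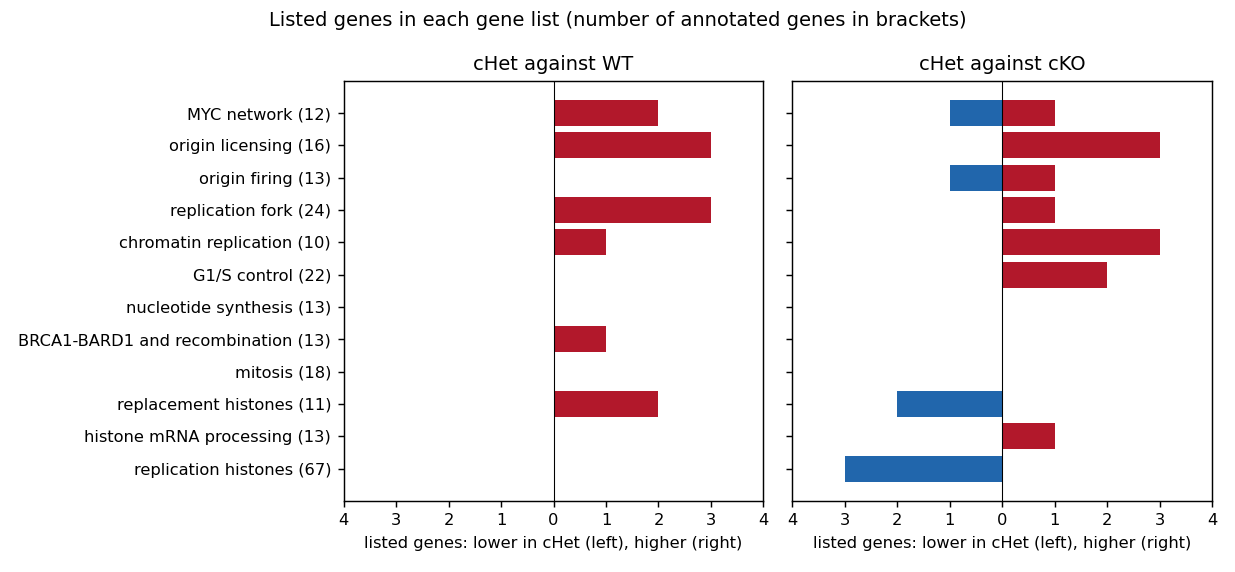
Numbers of listed genes in 12 lists of replication and histone genes, lower in cHet to the left and higher to the right, for cHet against WT and cHet against cKO. Every listed gene in the left panel is higher in cHet, and in the right panel the lower genes are in the MYC network, origin firing and both histone lists.

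Markers of the cells in the tissue moved beside these genes. Of 11 radial glia markers, 3 were higher and 1 lower in cHet in each table. Those higher were Lhx2, Emx1 and Emx2. Fabp7 was lower, at -0.75 (SE 0.20) against WT and -1.05 (SE 0.20) against cKO in the authors' deposited table. Pax6, Sox2, Hes1, Hes5, Vim, Nes and Slc1a3 were not listed, and how far they moved is unknown. The listed radial glia markers thus went in both directions. Of 9 neuronal markers 2 were lower in each table, with Stmn2 at -0.999 (SE 0.15) against WT in the authors' deposited table. Of 9 ventral telencephalic markers 6 were lower in each, by far more. In the authors' deposited table these ran from -7.17 (SE 1.42) for Dlx6 to -4.20 (SE 1.21) for Gad1 against WT. Against cKO the authors' deposited table gave -5.55 (SE 1.51) for Gsx2 to -4.07 (SE 1.38) for Dlx5. Endothelial and pericyte markers were higher against cKO in 3 of 7 and meningeal ones in 2 of 6. Lower against cKO, as the histone genes were, were 1 of 4 erythroid markers, Hbb-y at -0.74 (SE 0.24), and 1 of 4 macrophage markers, Pf4 at -1.11 (SE 0.29), in the authors' deposited table. None of 4 markers of intermediate progenitors was listed. Summed marker levels per library were not analysed here, and the part of cell composition in the replication results was not tested.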

How the data were processed

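The study compared poly(A) RNA from embryonic cortex of 3 genotypes. The authors used cutadapt, featureCounts, the build mm10 and DESeq2, per the submitters' processing notes. Their versions, the aligner, the annotation and the strandedness are not stated in those sources. The deposited tables hold log2 fold changes with SE, read as log2 because DESeq2 reports that base, and per the file headers a statistic, a score equal to the change over its SE. The deposited adjusted p-value was under 0.05 in every row. Counts per library were not analysed, so depth is unknown, the count tests planned for that case were not run, and p-values measure only the spread between these libraries.

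Unadjusted p-values were recomputed from the statistics with the normal distribution, and the number of genes in each Benjamini-Hochberg adjustment was recovered from them. The functions were tested on simulated data. Identifiers were matched to GENCODE M21, and members to RefSeq promoters (9 of the 10 had a window). Stretches of 50 bases were compared with all annotated transcripts on both strands. The members and gene lists were chosen with earlier results of these data known. Named genes were the members, listed genes of the replication and histone lists, and the 3 genes nearest to Mycn. Alternatives were stricter thresholds, a minimum change and other adjustments. Calculations ran in Python 3.11.15 with SciPy 1.17.1, pandas 2.3.3, NumPy 2.4.6 and, for plots, matplotlib 3.10.9.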

Additional observations from a re-analysis of the deposited data

How the results depend on the processing

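Where a log2 change of 0.5 or more in size was also required, all 14 listed member changes were kept. To be listed, a change had to be about 3.35 times its SE against WT and 2.91 times against cKO. At the SEs of most of these member changes that alone exceeds 0.5, and Mycn against cKO passed narrowly, at 0.503. The minimum change is therefore little check on them. Under the other settings the member calls rested on the threshold. At an adjusted p under 0.01, 65 genes against WT and 133 against cKO were left, with 1 and 2 members, namely Mycn in both tables and Hist3h2ba against cKO. The Benjamini-Yekutieli adjustment, which allows for any dependence between genes, left 55 and 85 genes, 2 genes for cKO against WT, and the same member calls. The Bonferroni adjustment left 30 and 44 genes, with 1 member against WT, Mycn, and 0 against cKO. Of the 12 and 19 listed genes in the replication and histone lists, these 3 settings left 1 against WT each, and 2, 2 and 0 against cKO. Taking the 2 comparisons as independent raised the SE of the implied cKO over WT changes, from 0.11 to 0.16 for Mycn. Normalization, filters on low counts and leaving out libraries could not be examined on tables of comparisons. No paired analysis was possible because the values are comparisons that carry no replicate numbers. Depth sets the errors, and what it limits cannot be given without counts.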

Other observations

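Other cell cycle and polymerase genes were seen in the tables and were named after their values were seen. Ccnf, which encodes cyclin F, was higher in cHet by 0.46 (SE 0.14) against WT and by 0.46 (SE 0.14) against cKO in the authors' deposited table. Polr1b, a subunit of RNA polymerase I, had 0.69 (SE 0.15) and 0.50 (SE 0.15), and Cdca7l had 0.52 (SE 0.14) and 0.57 (SE 0.14), against WT and cKO in the authors' deposited table. Below the cKO level in cHet were Cdkn2d, an inhibitor of the G1 kinases CDK4 and CDK6, at -0.56 (SE 0.16), and Pole4, a subunit of DNA polymerase epsilon, at -0.78 (SE 0.26) in the authors' deposited table. H3f3c, a relative of H3f3a, had -1.06 (SE 0.30) against cKO in the authors' deposited table, and reads of such near copies may be split in counting.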
